A study of Homo sapiens with 6 samples.

Results

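The RNA of 10 enzymes of sphingolipid and ceramide metabolism was followed in the human AML cell line MV4-11. The enzymes were *SPTLC1*, *SPTLC2*, *CERS2*, *CERS5*, *CERS6*, *DEGS1*, *UGCG*, *ACER3*, *ASAH1* and *SGPL1*, chosen by name as 10 of the 61806 genes in the count table. All 10 passed the filter on low counts, which left 19149 genes for testing. MV4-11 is an established line that carries the *FLT3*-ITD mutation. Total RNA was sequenced in 6 libraries, 3 labelled shNC (a control shRNA) and 3 labelled shATGL (an shRNA against *ATGL*, the lipase encoded by *PNPLA2*), and the labels name no drug or time point. The study's methods name no promoter for the shRNA, and the labels do not say whether the 3 libraries of a group came from separate infections, so the p-values measure the spread between these libraries, which may be technical.

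The 6 libraries held between 59674064 and 74808280 counts, and the 10 enzymes took between 0.0955% and 0.101% of them. For *PNPLA2*, shNC 1 to 3 had 101, 97.0 and 107 CPM (counts scaled to the normalized size of the library), beside 102, 98.1 and 104 CPM for shATGL 1 to 3, a name kept here for the libraries so labelled. These groups overlapped. The log2 fold change of *PNPLA2*, given throughout as shATGL minus shNC, was -0.01 (95% CI -0.15 to 0.14, adjusted p = 0.979). RNA of the targeted gene thus did not bear out the label in this table. The paper, in contrast, reports knockdown of the ATGL protein in this cell line by western blot. It also shows *ATGL* RNA after knockdown, and describes *ATGL* expression as decreased in knockdown cells that overexpressed CEBPα. Whether these libraries came from the same cells is not stated. All 8 myeloid markers listed for the line were detected, the lowest being *MEIS1* with between 178 and 325 counts and *MPO* with between 214 and 356. *LYZ*, which encodes lysozyme, averaged 841 CPM in shNC beside 737 in shATGL (log2 fold change -0.19, unadjusted p = 0.0166, adjusted p = 0.392). Of all genes, 11.7% had an unadjusted p under 0.05. *MPO* went the other way without overlap, at 3.60 CPM in shNC and 4.14 in shATGL (log2 fold change 0.20, adjusted p = 0.576). For *CD33*, *FLT3*, *SPI1*, *CSF1R*, *HOXA9* and *MEIS1* the groups overlapped. Of the markers of other cell types given here, *EPCAM* had 0 counts, *CD3E*, *ALB* and *COL1A1* had at most 15 counts in any library, and *PECAM1*, which myeloid cells also express, had between 15594 and 21669.

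Ceramide is the hub of sphingolipid metabolism. Serine palmitoyltransferase joins serine to palmitoyl-CoA, ceramide synthases attach a second fatty acid to the resulting base, and a desaturase then turns dihydroceramide into ceramide. Ceramide is built into glucosylceramide and sphingomyelin, or is split by ceramidases to sphingosine, whose phosphate is cleaved irreversibly by a lyase. In leukemia cells ceramide is best known as a lipid tied to cell death, and sphingosine 1-phosphate as one tied to survival.

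The shRNA strands are shown because the comparison rests on their site being in *PNPLA2* and not in the enzymes. The supplement lists 2 sequences of 19 bases under the names Sh*ATGL*-1 and Sh*ATGL*-2, which the paper uses as separate knockdown groups. As printed they would form a duplex with each other. They are shown here as strands 1 and 2 without their TT ends, with bases 2 to 8 (the seed, if that strand is the one loaded) in capitals:
strand 1: gUGCCAAGuucauugaggu
strand 2: aCCUCAAUgaacuuggcac
The transcript site that pairs with strand 2 was present without a mismatch in the coding part of exon 3 of *PNPLA2* (chr11:821637-821655, plus strand; all coordinates are of GRCh38, from GENCODE 29). In the annotated transcripts of the 10 enzymes the closest window to that site was in *SGPL1*, with 5 mismatches, and the closest to the site pairing with strand 1 was also in *SGPL1*, with 4. Both windows of *SGPL1* lie in its last exon, exon 15, the window of strand 2 in the 3' UTR (chr10:70880344-70880362) and that of strand 1 across the end of the coding sequence (chr10:70877326-70877344). They are shown with mismatched bases in capitals:
PNPLA2, strand 2 site: gtgccaagttcattgaggt
SGPL1, strand 2 window: gtAccTaTttcaGAgaggt
SGPL1, strand 1 window: accCcaCtgaacttggACc
The closest windows of the other 9 enzymes had between 6 and 8 mismatches. Of the longest transcripts of 18566 genes tested, 4.75% held a window within 5 mismatches of the strand 1 site and 5.19% one within 5 of the strand 2 site. The windows of the enzymes came from all their annotated transcripts, so these shares, from 1 transcript a gene, may be low beside them. The 7 bases that pair with the strand 2 seed, ATTGAGG, were in the longest transcripts of 4 enzymes (*SPTLC1*, *CERS2*, *DEGS1* and *ASAH1*) and in 18.4% of all genes, and those that pair with the strand 1 seed, CTTGGCA, were in 2 enzymes (*ASAH1* and *SGPL1*) and in 23.4% of all genes. Only the transcript strand was searched, and the labels do not say which strand a library carried. The titles of the shATGL libraries end in 1, 2 and 3, and whether 1 and 2 refer to the listed sequences could not be told from the titles.

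None of the 10 enzymes was called different between the groups, where a call needs an adjusted p under 0.05 in edgeR's quasi-likelihood test and a fold change of at least 2. Over all genes 0.00522% were called. At an unadjusted p under 0.05 there were 0 of 10 enzymes, beside 11.7% of all genes. DESeq2 also gave 0 enzymes at either threshold, whereas limma voom with quality weights gave 4 at an unadjusted p under 0.05, beside 30.6% of all genes in that fit, and 0 called. The log2 fold changes ran from -0.12 (*SPTLC1*) to 0.18 (*ACER3*), with 3 enzymes above 0 and 7 below. Their median was -0.04, beside 0.01 over all genes tested. With a joint correction for transcript length and GC content all 10 lay below 0, as did the median of all genes (-0.06). In bulk RNA a lower level in each cell and fewer cells with the RNA cannot be told apart. The 95% confidence interval that reached farthest from 0, that of *ACER3*, ended at a log2 fold change of 0.41, so a 2-fold change in either direction lay outside the interval of every one of the 10 enzymes.

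**Figure D1:**
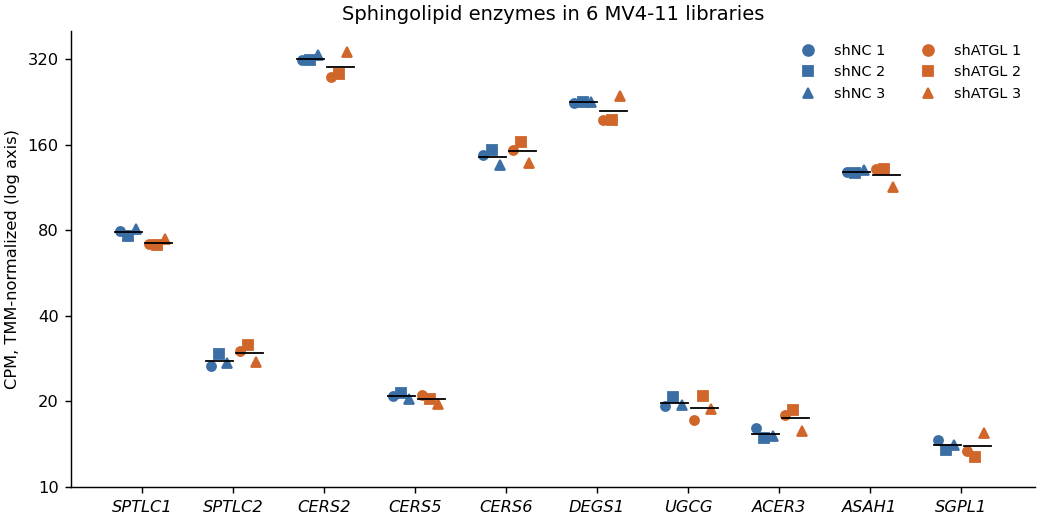
TMM-normalized CPM of the 10 enzymes (log axis), 1 point per library (blue shNC, orange shATGL, symbols for replicates 1 to 3), with a black line at each group mean. The shATGL 3 library stands above shATGL 1 and 2 for *CERS2* and *DEGS1*.

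The first step of the pathway was represented by the subunits *SPTLC1* and *SPTLC2*, which together form the active core of serine palmitoyltransferase. *SPTLC1* (ENSG00000090054, chr9:92000087-92115384, minus strand) stood at 79.3, 76.2 and 80.8 CPM in shNC 1 to 3 and at 71.4, 71.1 and 74.7 CPM in shATGL 1 to 3. It was the one enzyme of the 10 whose groups did not overlap, with all 3 shATGL libraries below all 3 shNC libraries. Of all genes tested, 9.38% were lower and 7.93% were higher in shATGL without overlap. The shNC libraries averaged 78.8 ± 2.37 CPM and the shATGL libraries 72.4 ± 1.99 CPM (SD, n = 3 each), or 91.9% of shNC with a 95% CI of 83.4% to 101.3%. The log2 fold change of -0.12 (SE 0.06) did not pass the test (unadjusted p = 0.0802, adjusted p = 0.466), and the exact two-sided permutation test gave p = 0.1, the smallest value that 3 libraries against 3 can give. The processed pseudogene SPTLC1P1, which could share reads with *SPTLC1*, had between 2 and 15 counts in a library.

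*SPTLC2* (ENSG00000100596, chr14:77505997-77616773, minus strand), the subunit that carries the catalytic lysine, stood at 26.7, 29.4 and 27.4 CPM in shNC and at 30.0, 31.5 and 27.6 CPM in shATGL. The shATGL 3 library lay within the shNC range and the other 2 above it. Its log2 fold change of 0.09 (95% CI -0.10 to 0.29, adjusted p = 0.671) was opposite in sign to that of *SPTLC1*, although it turned to -0.06 with the length and GC correction described further on. *SPTLC3*, another long-chain subunit, had at most 42 counts in a library and 0 in at least 1. Per length of exon, *SPTLC1* made up between 75.7% and 80.7% of the 3 subunits' summed RNA in the 6 libraries.

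The small subunit *SPTSSA*, which stimulates the enzyme, was one of 2 genes of the wider pathway with an unadjusted p under 0.05. These were 2 of 49 tested, beside 11.7% of all genes. It stood at 59.6, 57.9 and 53.1 CPM in shNC and at 46.7, 45.8 and 49.8 CPM in shATGL. All 3 shATGL libraries were lower, at 83.4% of shNC (95% CI 74.0% to 94.1%, log2 fold change -0.26, unadjusted p = 0.00867, adjusted p = 0.392), so it did not pass the adjusted test. *ORMDL1*, which belongs to the family that restrains serine palmitoyltransferase and is named as the gene of this role group with the highest mean CPM, not corrected for length, was at -0.08 on the log2 scale (adjusted p = 0.71).

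The ceramide synthases differ in the length of the acyl chain they prefer. *CERS2* uses very long chains, and *CERS5* and *CERS6* mainly palmitoyl chains. *CERS2* (ENSG00000143418, chr1:150960583-150975004, minus strand) stood at 317, 318 and 330.4 CPM in shNC and at 278, 285 and 341 CPM in shATGL. The shATGL 1 and 2 libraries were below every shNC library and shATGL 3 was above them all. Its group means were 322 ± 7.57 and 301 ± 34.6 CPM (SD, n = 3 each), with a log2 fold change of -0.10 (95% CI -0.29 to 0.10, adjusted p = 0.662). In the annotation *CERS2* shares 948 exon bases with *SETDB1* on the opposite strand, and the strand setting of the counting is not given in the sources used here, so reads there could have been counted on either gene.

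*CERS6* (ENSG00000172292, chr2:168455862-168775137, plus strand) stood at 147, 153 and 135 CPM in shNC and at 154, 164 and 138 CPM in shATGL. In *CERS6* it was shATGL 1 and 2 that were high, while shATGL 3 lay within the shNC range (log2 fold change 0.07, 95% CI -0.12 to 0.26, adjusted p = 0.761, and -0.10 with the length and GC correction). An annotated opposite-strand transcript over *CERS6*, *CERS6-AS1*, had 0 counts in all 6 libraries. *CERS5* (ENSG00000139624, chr12:50129306-50167533, minus strand) was a much smaller part of the family and the steadiest of the 10 enzymes, with 20.9, 21.5 and 20.3 CPM in shNC and 21.1, 20.4 and 19.6 CPM in shATGL. Its coefficient of variation over the 6 libraries was 3.19%, and its log2 fold change was -0.04 (95% CI -0.23 to 0.15, adjusted p = 0.877).

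Levels of different genes were compared only per length, as CPM per kb of annotated exon (the union over all transcripts). On that scale *CERS2* held 74.5%, 73.8% and 76.6% of the summed *CERS2*, *CERS5* and *CERS6* RNA in shNC and 71.1%, 70.4% and 77.0% in shATGL. *CERS6* held between 19.98% and 26.1% and *CERS5* between 3.05% and 3.71%. The order *CERS2*, *CERS6*, *CERS5* was the same in every library, and the groups overlapped for all 3 shares. With *CERS1*, *CERS3* and *CERS4* added, the *CERS2* share was 69.0% on average (65.5% to 72.1%) and that of *CERS6* 21.2% (18.7% to 24.3%), while *CERS1*, *CERS4* and *CERS5* each held between 2.57% and 3.75%. *CERS3*, the synthase for ultra-long chains of skin, had between 4 and 17 counts in a library and did not pass the filter.

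**Figure D2:**
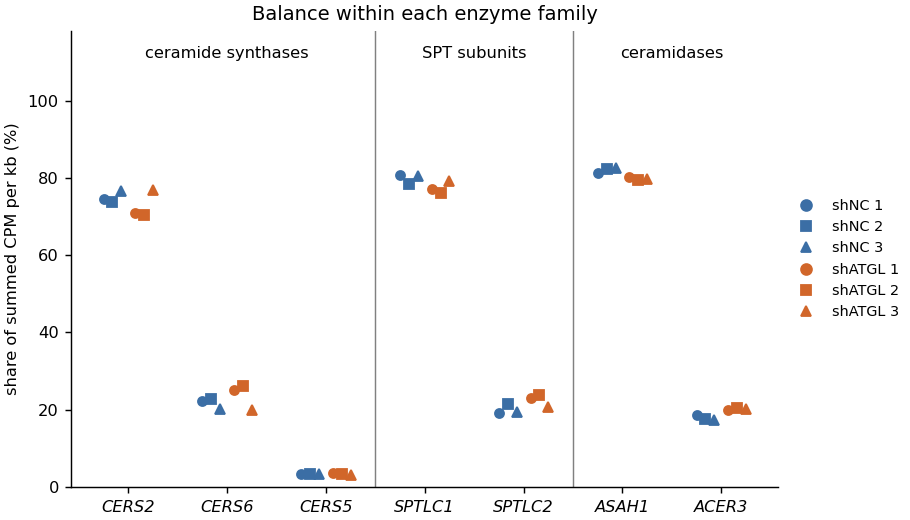
Share of each enzyme in the summed CPM per kb of its family (linear axis from 0), 1 point per library, for the 3 ceramide synthases, the 2 large subunits of serine palmitoyltransferase (SPT) and the 2 ceramidases among the 10 enzymes. *CERS2*, *SPTLC1* and *ASAH1* hold the larger share of their family in all 6 libraries, and the only shares whose groups do not overlap are those of the 2 ceramidases.

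*DEGS1*, the dihydroceramide desaturase that makes the last step to ceramide (ENSG00000143753, chr1:224175756-224193441, plus strand), stood at 224, 226 and 227 CPM in shNC. In shATGL it had 196, 196 and 237 CPM. As in *CERS2*, shATGL 1 and 2 were below and shATGL 3 above all of shNC. The SD was 1.76 CPM in shNC and 23.5 CPM in shATGL (n = 3 each), and the log2 fold change was -0.11 (95% CI -0.30 to 0.08, adjusted p = 0.613). Its paralog *DEGS2* was low, with between 49 and 107 counts.

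*UGCG*, which makes glucosylceramide and so opens the route to the glycosphingolipids (ENSG00000148154, chr9:111896766-111935369, plus strand), had 19.3, 20.7 and 19.5 CPM in shNC and 17.3, 20.9 and 18.9 CPM in shATGL. The shATGL libraries fell on both sides of shNC (log2 fold change -0.06, 95% CI -0.29 to 0.17, adjusted p = 0.833).

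Ceramide is degraded by ceramidases that work at different pH and in different organelles. *ASAH1* is the acid ceramidase of the lysosome, and *ACER3* the alkaline ceramidase of the endoplasmic reticulum and Golgi. *ASAH1* (ENSG00000104763, chr8:18055992-18084998, minus strand) stood at 128, 127 and 131 CPM in shNC and at 131, 131 and 113 CPM in shATGL, where shATGL 3 was the lowest of the 6 libraries. Its log2 fold change was -0.04 (95% CI -0.21 to 0.13, adjusted p = 0.853). *ACER3* (ENSG00000078124, chr11:76860867-77026797, plus strand) stood at 16.1, 14.9 and 15.1 CPM in shNC and at 17.8, 18.6 and 15.8 CPM in shATGL. It showed the largest upward difference of the 10, at 113% of shNC (95% CI 96.5% to 133%, log2 fold change 0.18, unadjusted p = 0.109, adjusted p = 0.502, but -0.03 with the length and GC correction), and shATGL 3 lay within the shNC range.

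Set against each other per length, *ACER3* made up 18.6%, 17.6% and 17.4% of the summed *ASAH1* and *ACER3* RNA in shNC and 19.9%, 20.6% and 20.2% in shATGL. These shares did not overlap, and shATGL 3 lay with the other shATGL libraries, but the genes behind the shares differed. In shATGL 3 *ACER3* (15.8 CPM) lay within the shNC range and *ASAH1* (113 CPM) was low. In shATGL 1 and 2 *ACER3* was above shNC (17.8 and 18.6 CPM), with *ASAH1* at 131 CPM in both. How often such shares do not overlap for other gene pairs was not computed. The ceramidase shares were chosen after their values had been seen and were not tested. Of the other ceramidases, *ACER2* had between 142 and 286 counts, while *ACER1* and *ASAH2* had 0 counts in all 6 libraries. This allows at most 0.0504 CPM in shNC 2, the library of the smallest normalized size (3 counts, counting error only).

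*SGPL1*, the lyase that ends sphingolipid breakdown by cleaving sphingosine 1-phosphate (ENSG00000166224, chr10:70815961-70881173, plus strand), stood at 14.6, 13.5 and 14.1 CPM in shNC and at 13.4, 12.8 and 15.4 CPM in shATGL. The shATGL 1 and 2 libraries were below and shATGL 3 above all of shNC. The log2 fold change was -0.02 (95% CI -0.27 to 0.23, adjusted p = 0.954). Its transcripts held the closest windows to the shRNA strands shown earlier.

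Over the 6 libraries the level per length ran, from high to low, in the order *DEGS1* (86.5 CPM per kb), *CERS2* (67.0), *CERS6* (20.5), *SPTLC1* (11.7), *ASAH1* (8.25), *UGCG* (4.20), *SPTLC2* (3.14), *CERS5* (3.06), *ACER3* (1.94) and *SGPL1* (1.87). The ranges over the 6 libraries were separate for 7 of the 9 neighbouring pairs. *SPTLC2* and *CERS5* overlapped, and so did *ACER3* and *SGPL1*, of which *SGPL1* was the higher in 4 of 6 libraries. With the longest transcript as the length in place of the exon union, *CERS2* (122 CPM per kb) came before *DEGS1* (104), *ASAH1* went from 8.25 to 22.1 and *CERS6* stayed at 20.6. *SPTLC1* (25.3) then came before *CERS6*, and *CERS5* (6.88) before *UGCG* (4.84). On this length the ranges of *CERS2* and *DEGS1* overlapped, as did those of *ASAH1* and *CERS6*, and of *SGPL1* and *ACER3*. The order of the abundant enzymes therefore depends on which transcripts are taken to be expressed, which gene counts do not show. *ASAH1* has 69 annotated transcripts and *CERS6* has 2.

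**Figure D3:**
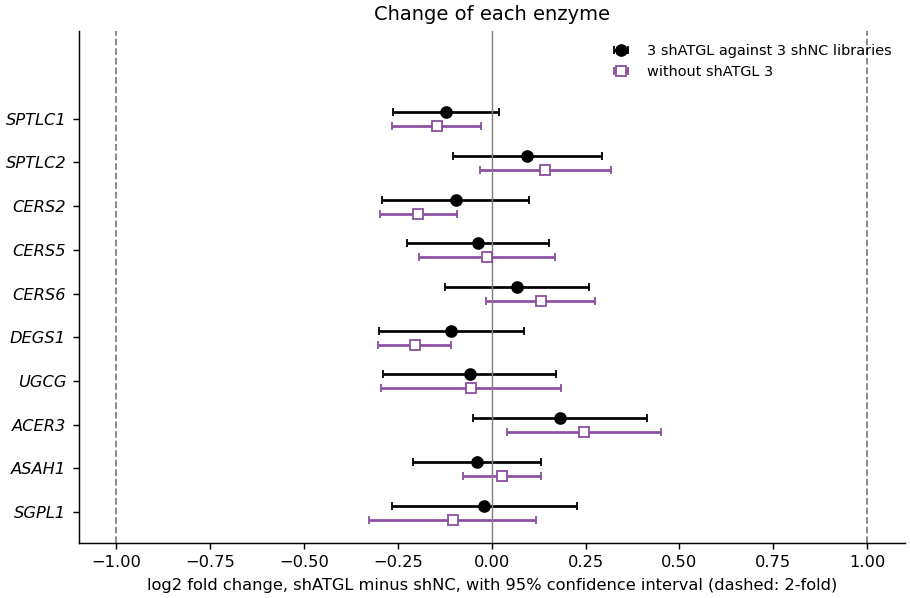
Log2 fold change of each enzyme (shATGL minus shNC) with its 95% confidence interval from edgeR, for all 6 libraries (black circles) and without shATGL 3 (open purple squares). With all 6 libraries every interval includes 0, and without shATGL 3 the intervals of *SPTLC1*, *CERS2*, *DEGS1* and *ACER3* do not. In that fit 28.8% of all genes had an unadjusted p under 0.05, and leaving out any other single library gave 0 enzymes under it. The dashed lines at a 2-fold change lie outside every interval.

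The shATGL 3 library moved several enzymes. It had the fewest counts (59674064) and the fewest genes with a count (24360), with shNC 2 close to it (60003349 and 24381). The part of depth was not tested. The shATGL 3 library was the highest of the 6 libraries for *CERS2*, *DEGS1* and *SGPL1* and the lowest for *ASAH1* and *CERS5*. Without it, *DEGS1* was at 86.7% of shNC (95% CI 81.1% to 92.8%, log2 fold change -0.21, adjusted p = 0.0208) and *CERS2* at 87.3% (95% CI 81.3% to 93.7%, log2 fold change -0.20, adjusted p = 0.0278). Both then fell at an adjusted p under 0.05, as did 6.07% of all genes in that direction, but neither reached a 2-fold change. *SPTLC1* was at 90.3% of shNC (adjusted p = 0.1) and *ACER3* at 119% (adjusted p = 0.109), so that 4 enzymes had an unadjusted p under 0.05, beside 28.8% of all genes in that fit. The number of genes called over the whole table went from 1 to 319 without this library.

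The sign of the log2 fold change followed transcript length among the 10 enzymes. The 3 enzymes above 0 (*SPTLC2*, *CERS6* and *ACER3*) had the 3 longest transcripts, with 8170, 7217 and 7378 bases, and the 3 lowest values belonged to the enzymes with the 3 shortest, *SPTLC1* (2982 bases), *DEGS1* (2101) and *CERS2* (2544). Spearman's rho between log2 fold change and length was 0.915 over the 10 enzymes and 0.218 over 18566 genes tested with an annotated length, where all points share the same 6 libraries. When all genes were split by length into 5 equal bins, the median log2 fold change ran from -0.06 and -0.08 in the 2 shortest bins to 0.10 in the longest. The rank correlation of a library's deviation with length was 0.206 and 0.23 in shATGL 1 and 2, -0.0498 in shATGL 3, and between -0.317 and -0.0287 in shNC.

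When each library's fitted trend with length and GC content was taken out, all 10 enzymes lay below 0. *SPTLC2* (-0.06), *CERS6* (-0.10) and *ACER3* (-0.03) changed sign. Spearman's rho with length was then 0.370 over the 10 enzymes and 0.067 over all genes with a length, so some trend remained. That correction moved the median of all genes to -0.06, below which 8 of the 10 enzymes lay. None reached an adjusted p under 0.05, and the lowest was that of *ASAH1* (log2 fold change -0.24, unadjusted p = 0.0532, adjusted p = 0.344). With the correction and without shATGL 3, a combination chosen after seeing the data, *SPTLC1*, *CERS2*, *CERS6*, *DEGS1* and *ASAH1* had an adjusted p under 0.05 at log2 fold changes between -0.38 and -0.16, beside 17.2% of all genes that were lower at that threshold in the same fit, with the median of all genes at -0.10. In fits chosen after seeing the data that removed 1 trend alone, the length fit put *SPTLC2* at -0.07, *CERS6* at -0.08 and *ACER3* at 0.03. The GC fit put them at 0.01, -0.05 and 0.03. The median of all genes was -0.0635 in the length fit and -0.0513 in the GC fit. The signs given above for these 3 enzymes thus depend on the correction, which also moved that median below 0. *ACER3* lay below 0 only with the joint one among the 3 corrections of all 6 libraries, and above the median of all genes in all 3. *SPTLC2* and *CERS6* lay above that median only in the GC fit. The part of transcript length or GC content in these differences was not tested beyond this.

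The rest of the pathway was described through 58 other sphingolipid genes, of which 49 passed the filter. Of these, 19 lay above 0 and 30 below, with a median log2 fold change of -0.04. An unadjusted p under 0.05 was found for 2 of the 49 (*SPTSSA* lower, *ARSA* higher), beside 11.7% of all genes tested. None passed at an adjusted p under 0.05. By groups that do not overlap, 4 were higher (*SGMS2*, *UGT8*, *ARSA* and *SPHK1*) and 6 lower (*SPTSSA*, *ORMDL3*, *ST3GAL5*, *GM2A*, *NEU1* and *ALDH3A2*) in shATGL. These lists were named after their values were seen, and the shares over all genes are those given for *SPTLC1*.

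*ARSA*, the lysosomal sulfatase that degrades sulfatide, had 20.8, 20.9 and 21.4 CPM in shNC and 28.6, 26.8 and 22.9 CPM in shATGL. All 3 shATGL libraries were higher, at 124% of shNC (95% CI 105% to 146%, log2 fold change 0.31, unadjusted p = 0.0159, adjusted p = 0.392). In lysosomal and other glycosphingolipid breakdown 9 of 12 genes lay below 0, among them *PSAP*, the saposin precursor and the gene of its group with the highest mean CPM (438 ± 16.0 CPM in shNC and 414 ± 35.2 in shATGL, SD, n = 3 each, adjusted p = 0.666).

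In the remaining groups, whose named genes have the highest mean CPM of their group without regard to length, no gene had an unadjusted p under 0.05. Among 7 genes of sphingomyelin metabolism, 3 lay above 0 and 4 below, with the sphingomyelinase *SMPD4* named for its mean CPM (176 and 160 CPM on average, log2 fold change -0.14, adjusted p = 0.475). In glycosphingolipid synthesis, downstream of *UGCG*, 3 of the 6 genes tested lay above 0 and 3 below, and the lactosylceramide synthase *B4GALT5* had 109 and 103 CPM (adjusted p = 0.745). *CERK*, which phosphorylates ceramide, had 75.1 and 75.4 CPM (log2 fold change 0.01, 95% CI -0.20 to 0.21, adjusted p = 0.984). Among genes of sphingosine 1-phosphate, *ALDH3A2*, the aldehyde dehydrogenase that acts after *SGPL1*, had 58.1 and 53.5 CPM (adjusted p = 0.503). Of the receptors, *S1PR3* had 10.5 and 10.6 CPM (adjusted p = 0.974), and *S1PR1* and *S1PR4* had 0 counts in all libraries. The ceramide transfer protein, annotated as *COL4A3BP*, had 21.9 ± 2.38 CPM in shNC and 27.0 ± 7.29 in shATGL (SD, n = 3 each), with 31.1, 31.4 and 18.6 CPM in shATGL 1 to 3, so shATGL 3 was again apart from the other 2 (adjusted p = 0.554).

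**Figure D4:**
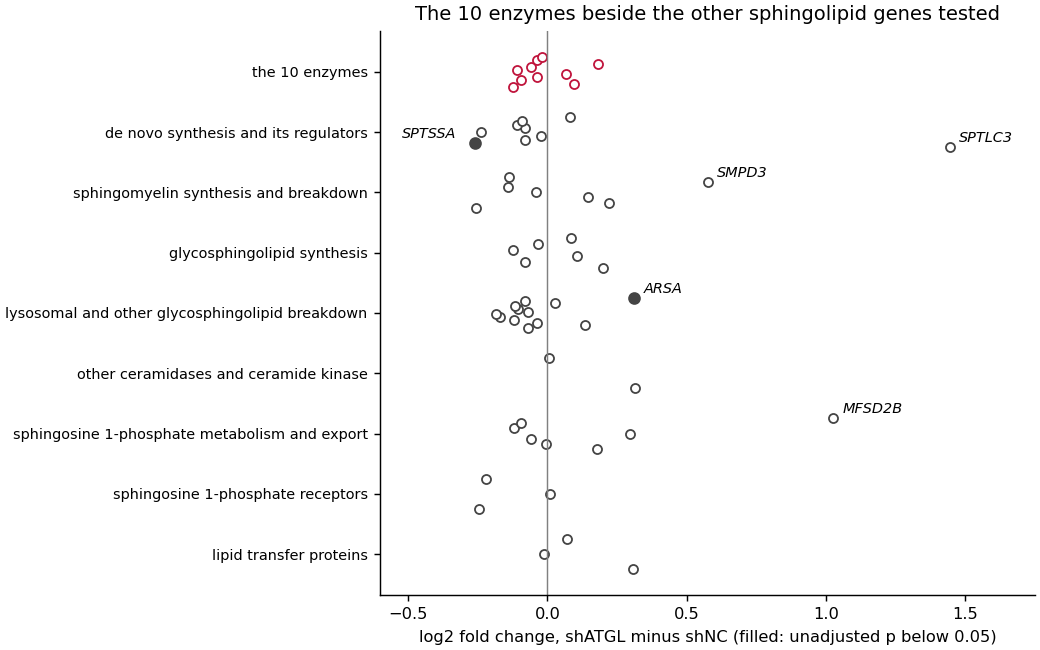
Log2 fold change (shATGL minus shNC) of the 10 enzymes (red) and of the 49 other sphingolipid genes tested, by role, with filled points for an unadjusted p under 0.05. The 10 enzymes lie between -0.12 and 0.18, *ARSA* and *SPTSSA* are the filled points, and *SPTLC3*, *SMPD3* and *MFSD2B*, at the right, are genes of low counts.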

How the data were processed

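The members and gene lists were chosen with earlier results of these data known. RNA was extracted from MV4-11 cells, and reads of low quality were removed with FASTP, and the authors deposited raw counts per Ensembl gene, without normalization. The library preparation is described differently in the sample labels and in the supplement, and the submitters' processing notes name the mouse build mm10 although the identifiers are human. The aligner, counter and strand setting are not given in the sources used here. Coordinates and transcript lengths are from GENCODE 29 (GRCh38) and not from the counted data.

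The counts were fitted with edgeR 4.0.16 in R 4.3.3 (filterByExpr with a minimum count of 10 and a minimum total of 15, TMM, quasi-likelihood test, Benjamini-Hochberg over 19149 genes). A call needed an adjusted p under 0.05 together with at least a 2-fold change. CPM used TMM library sizes. An exact two-sided permutation test of log2(CPM + 1) over 20 relabellings was run for single genes. Genes named were the 10 enzymes, *PNPLA2*, the pathway genes with an unadjusted p under 0.05 and the gene of each role group with the highest mean CPM; others were named after their values were seen. Alternatives were DESeq2 1.42.0 or its size factors, upper-quartile normalization, limma 3.58.1 (voom with quality weights), other filters, a replicate block, each library left out, and natural splines (4 degrees of freedom) for length and GC content, jointly or singly. Further markers of other cell types on the list are not reported here.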

Additional observations from a re-analysis of the deposited data

How the results depend on the processing

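None of the 10 enzymes was called under any of the alternatives run. At an unadjusted p under 0.05 there were 4 enzymes with voom (*SPTLC1*, *CERS2*, *DEGS1* and *ACER3*), 0 to 4 when single libraries were left out (4 without shATGL 3), and 6 with the length and GC correction without shATGL 3. The shares of all genes were 30.6% with voom, 28.8% without shATGL 3 and 34.0% with that correction without shATGL 3. *DEGS1* had an adjusted p of 0.0483 with voom, a fit in which 10.8% of all genes had an adjusted p under 0.05. Over all genes the count called was 1, and it was 3 with upper-quartile normalization, 23 with DESeq2, 266 with voom, 0 to 319 with libraries left out (0 without shNC 3 or shATGL 1, 2 without shNC 1 and 319 without shATGL 3) and 164 with the correction without shATGL 3. Pathway genes at an unadjusted p under 0.05 numbered 2 of 49, beside 11.7% of all genes. With voom they were 15 of 49 (30.6% of all genes), with the correction 7 of 49 (14.7%) and with GC content alone corrected 6 of 49 (15.7%). With libraries left out they numbered 1 to 13. These were 1 of 49 without shATGL 1 (5.31% of all genes) or shATGL 2 (5.17%), 4 of 50 without shNC 2 (9.27%) and 13 of 50 without shATGL 3 (28.8%). With the correction without shATGL 3 they were 21 of 50 (34.0%). The cause was not tested.

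With the correction the log2 fold changes of *SPTLC2* (-0.0609), *CERS6* (-0.104) and *ACER3* (-0.0308) were reversed, as they were when shATGL 3 was also left out (-0.0965, -0.158 and -0.128). With length alone corrected *SPTLC2* (-0.0693) and *CERS6* (-0.0829) were reversed, and with GC content alone *CERS6* (-0.0458). The median of all genes was also below 0 in these fits. It was -0.0581 with the correction, -0.0635 with length alone, -0.0513 with GC content alone and -0.0957 with the correction without shATGL 3. *ASAH1* was at 0.0190 with voom. With libraries left out, *SGPL1* ranged from -0.104 to 0.0365, *UGCG* from -0.132 to 0.00528, *CERS5* from -0.0637 to 0.00544 and *ASAH1* from -0.0741 to 0.0270. The mean *CERS2* share of the 3 ceramide synthases was 73.9% with the exon union and 81.6% with the longest transcript.

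Libraries that share a replicate number deviated together with correlations of 0.06, 0.233 and 0.343 over 13935 genes. Not all exceeded 0.1, so the numbers were not taken as pairs. The libraries shNC 1 and shATGL 1 each correlated better with a library of another number. With the replicate block 1 enzyme (*SPTLC1*) and 6 of 49 pathway genes had an unadjusted p under 0.05, as did 3317 of all genes tested (17.3%), and 0 genes were called. With 3 libraries a group, the 95% intervals of the 10 enzymes lay between 81.2% and 133% of shNC, and differences within an enzyme's interval could not be resolved.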
